A study of Homo sapiens with 12 samples.

Results

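The chemokines, the interleukins and the interleukin receptors are 128 of the 48114 genes measured. They were chosen by symbol alone: every gene whose symbol is CXCL, CCL, CX3CL or XCL, or IL, followed by a number (and further letters), with either symbol accepted where the annotation joins a pair in 1 gene. The naming rule uses no expression value, although the families were picked with earlier results of these data known. By role they comprise 6 CXC chemokines with the ELR signature (CXCL1, CXCL2, CXCL3, CXCL5, CXCL6 and CXCL8), 11 other CXC, CX3C and XC chemokines, 26 CC chemokines, 12 ligands or antagonists of the IL-1 family, 7 ligands of the IL-6 and IL-12 families, 24 other interleukins, 41 receptors in 5 families and 1 enzyme gene.

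PolyA RNA was sequenced from 2 human cell lines of pancreatic ductal adenocarcinoma (PDAC), with 3 libraries in each of 4 groups, which the labels call biological replicates. PANC-1 cells, used by the study as a basal-like line, received a control siRNA (siCtrl), siRNAs against the RNA-binding protein QKI (siQKI) or siRNAs against the splicing factor RBFOX2 (siRBFOX2). The knockdown siRNAs were used at 40 nM, and a time of 48 h is listed for all 4 groups. HPAF-II cells, used as a line of the classical subtype, received siCtrl only, so no knockdown was measured there. Both knockdowns were compared with the same 3 siCtrl libraries, each protein was targeted in 1 cell line, and an effect of losing the protein cannot be told apart here from an effect of the siRNA sequences. QKI mRNA was left at 19.7% of its siCtrl level in siQKI libraries, and RBFOX2 mRNA at 13.6% in siRBFOX2 libraries. RBFOX2 mRNA was also lower in siQKI libraries, at 81.9% of its siCtrl level, and QKI mRNA was at 110% in siRBFOX2 libraries.

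Chemokines are small secreted proteins that guide the migration of leukocytes through receptors coupled to G proteins, and interleukins are secreted signals read by paired receptor chains. ELR chemokines attract neutrophils through CXCR1 and CXCR2, whereas CCL2 attracts monocytes through CCR2. Many of these genes are switched on by NF-kappaB and AP-1 downstream of IL-1 or TNF, and receptors of the IL-6 family signal through JAK kinases and STAT3. Carcinoma cells of the pancreas are a known source of ELR chemokines, and several interleukins of the IL-1 and IL-6 families are known to act on the fibroblast-rich stroma of these tumors.

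The ELR chemokine genes lie in 1 cluster on chromosome 4 and carry the letters GGAATTTCC just upstream of their starts. The sequence around these letters is nearly the same in CXCL1, CXCL2 and CXCL3, and in CXCL5 and CXCL6, whereas that of CXCL8 differs. The sequences are printed here because 3 of the 6 genes fell after siQKI, and because the members that did not move carry the same letters. The windows below are from the RefSeq promoter table (GRCh38.p14), each read 5′ to 3′ on the strand of its gene. Capitals mark the letters GGAATTTCC, a kappaB motif searched on both strands. The windows are chr4:73869289-73869349 (plus strand) for CXCL1, chr4:74099238-74099298 (minus) for CXCL2, chr4:74038733-74038793 (minus) for CXCL3, chr4:73998733-73998793 (minus) for CXCL5, chr4:73836563-73836623 (plus) for CXCL6 and chr4:73740452-73740512 (plus) for CXCL8.
CXCL1: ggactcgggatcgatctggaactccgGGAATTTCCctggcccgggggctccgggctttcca
CXCL2: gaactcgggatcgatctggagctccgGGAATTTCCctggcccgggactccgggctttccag
CXCL3: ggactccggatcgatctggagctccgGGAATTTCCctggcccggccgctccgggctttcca
CXCL5: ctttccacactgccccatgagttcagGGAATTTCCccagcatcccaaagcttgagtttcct
CXCL6: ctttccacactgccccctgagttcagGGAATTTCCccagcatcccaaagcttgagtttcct
CXCL8: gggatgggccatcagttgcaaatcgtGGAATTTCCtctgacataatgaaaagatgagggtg
The first capital stood 77 to 91 bases upstream of the annotated start in all 6 genes. These letters were found in 145 of 35116 promoters (0.413%), and in 9 of the 100 genes of the families that had a promoter entry: the 6 ELR chemokines, CXCL10, CXCL11 and IL18RAP. The first share counts promoters and the second counts genes, which can have several promoters, so these shares are not directly comparable. A match describes these letters only and is no evidence of binding.

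The letters TGACTCA, an AP-1 motif (TGAGTCA on the other strand), were found in 1476 of the 35116 promoters (4.2%) and in 15 of the 100 genes. Here too promoters and genes are unlike units, so these shares are not directly comparable. They are shown for CXCL8 (chr4:73740406-73740464, plus strand) and IL11 (chr19:55370527-55370585, minus strand), since CXCL8 fell in both knockdowns and IL11 in siRBFOX2 alone. In IL11 the motif lies on the other strand. Of the other carriers, CCL27, CXCL11, IL15RA, IL1A and IL23A were tested and were called in neither knockdown.
CXCL8: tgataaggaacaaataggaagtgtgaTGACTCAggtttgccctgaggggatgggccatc
IL11: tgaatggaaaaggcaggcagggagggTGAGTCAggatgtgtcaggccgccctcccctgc

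About as many of these genes were detected in either line as among all genes. A mean of at least 10 normalized counts, which are gene counts divided by a size factor for each library, was reached by 63 members in siCtrl, 63 in siQKI, 67 in siRBFOX2 and 64 in HPAF-II libraries. This was 49.2%, 49.2%, 52.3% and 50% of the members, beside 46.1%, 47.2%, 46.7% and 44.5% of all genes. Of the 128 members, 26 were listed at 0 in all 12 libraries, among them IL2, IL4, IL10, IL17A and CXCL9, which are products of lymphocytes and myeloid cells. Over the 9 PANC-1 libraries together a mean of at least 10 was reached by CCL2 and CCL5 of the 16 CC chemokine genes clustered on chromosome 17, and by all 6 ELR chemokines and all 6 IL-17 receptors.

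The leading transcripts differed by role. Levels of different genes are compared here as counts rescaled to a library total of 1000000 and divided by exon length in kb (GENCODE 29). In PANC-1 siCtrl cells the highest levels per kb were those of IL18 (62.3), a cytokine of the IL-1 family, and IL32 (58.9), a cytokine of epithelial and immune cells, followed by CXCL1 (46.1) and CCL2 (44.2). Among receptors IL13RA1 (21.3), a shared chain for IL-4 and IL-13, and IL6ST (12.7), the signalling chain gp130 of the IL-6 family, were the most abundant.

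**Figure D1:**
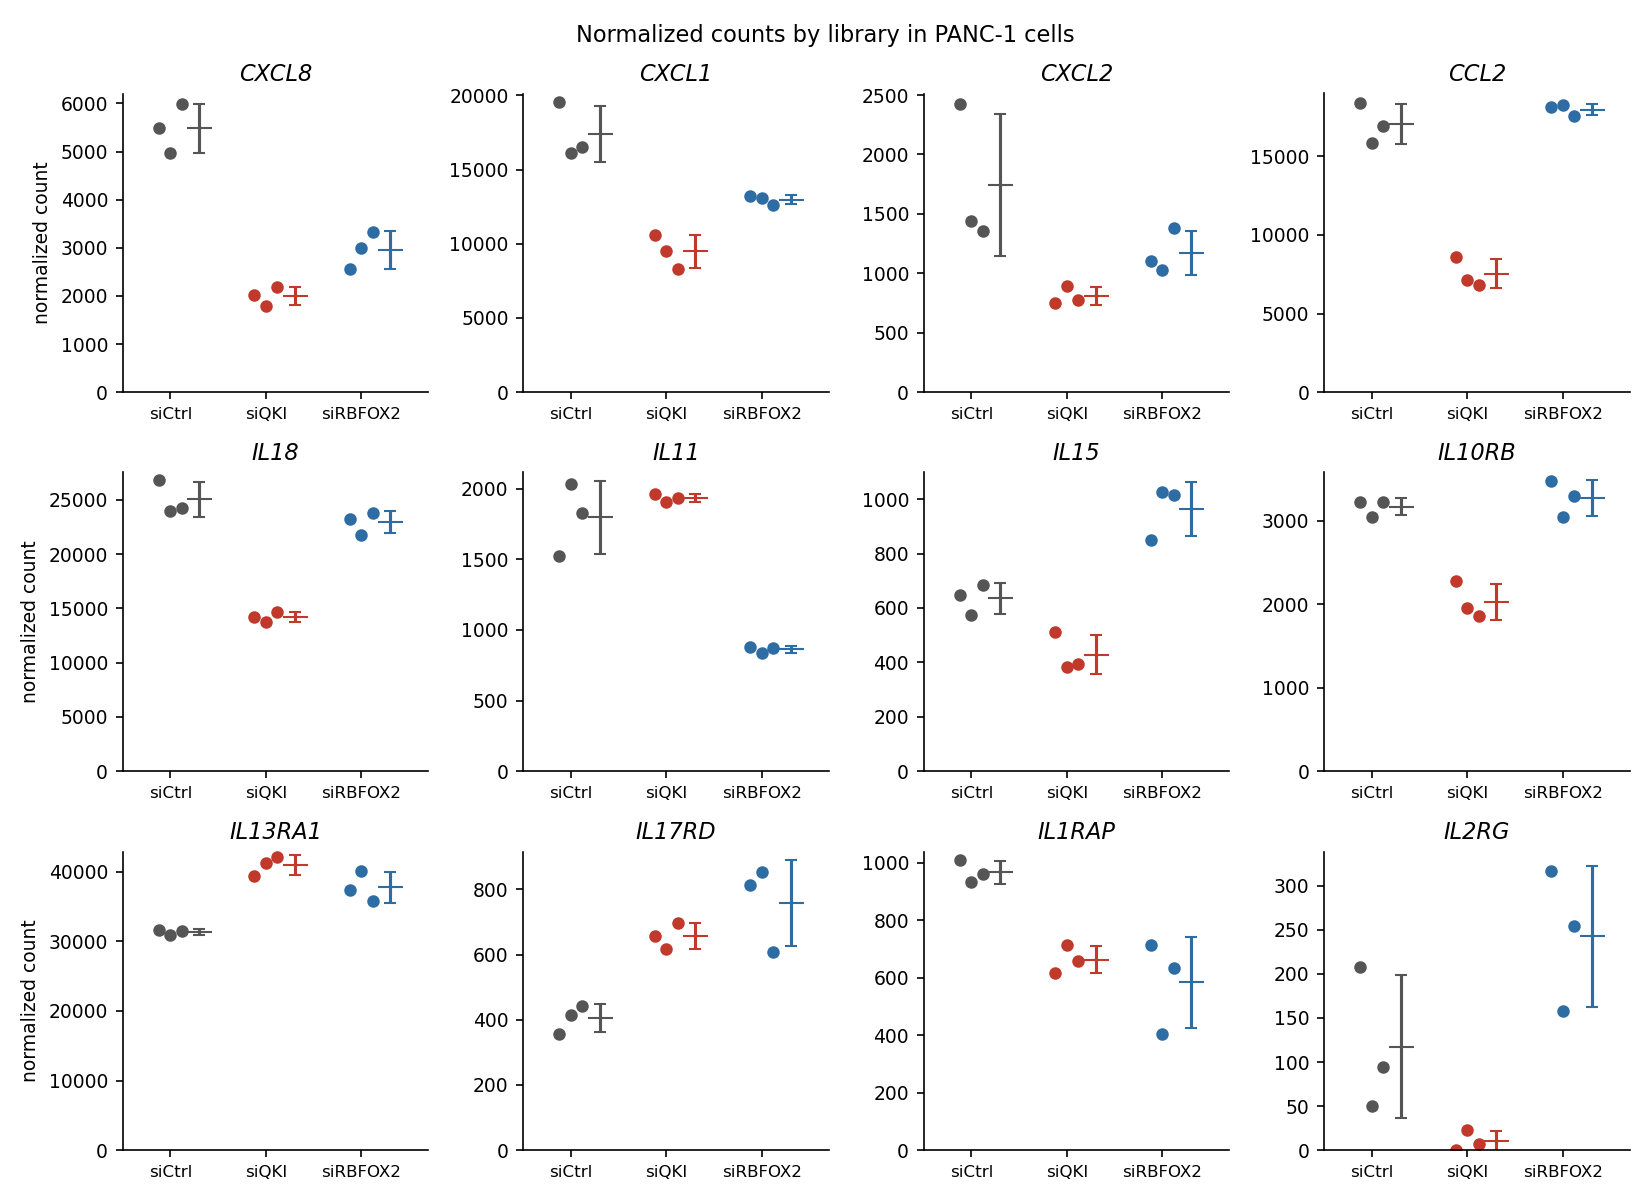
Normalized counts of 12 members in each PANC-1 library (y axis, linear from 0), with siCtrl, siQKI and siRBFOX2 on the x axis. Points are the 3 libraries of a group, and the bar beside them is the mean with its SD. CXCL8, CXCL1, CCL2, IL18 and IL10RB lie lower in all siQKI libraries than in all siCtrl libraries, IL11 is lowest in siRBFOX2, and IL13RA1 and IL17RD are higher in both knockdowns.

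The knockdowns were compared with siCtrl by limma, in a fit of 22544 genes with a mean of at least 10 over the 9 PANC-1 libraries, on log2(normalized count + 1). Adjusted p-values are Benjamini-Hochberg values over all these genes, and a gene is said to have risen or fallen where the adjusted p was under 0.05. Of the members 63 were tested and 65 were too low. After siQKI 19 of the 63 members changed (30.2%, where 33.0% of all genes did), 14 of them lower (22.2%, against 18.1%) and 5 higher (7.94%, against 14.9%). After siRBFOX2 22 changed (34.9%, against 26.5%), 11 lower (17.5%, against 14.5%) and 11 higher (17.5%, against 12%). In number, these shares were near those of all genes.

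Larger changes, with a fold of at least 1.5, were counted apart. After siQKI they were 10 of 63 (15.9%, against 9.03% of all genes), 7 of them lower (11.1%, against 3.16%) and 3 higher (4.76%, against 5.87%). After siRBFOX2 they were 8 (12.7%, against 5.71%), 4 lower (6.35%, against 1.62%) and 4 higher (6.35%, against 4.09%). The median log2 fold change of the 63 members was -0.12 after siQKI and 0.10 after siRBFOX2, beside 0.03 and 0.01 for all genes. The 3 libraries of a group did not overlap with those of siCtrl for 24 of 63 members after siQKI (38.1%, against 44.7%) and for 23 after siRBFOX2 (36.5%, against 37.9%). Since both knockdowns share their controls, they were also compared with each other: 20 of 63 members differed (31.7%, against 21.5% of all genes), 17 lower in siQKI (27%, against 11.6%) and 3 higher (4.76%, against 9.93%). By at least 1.5-fold, 11 members differed (17.5%, against 4.33%), 9 lower in siQKI (14.3%, against 2.24%) and 2 higher (3.17%, against 2.09%). The libraries of these groups lay apart for 23 members (36.5%, against 35.2%).

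**Figure D2:**
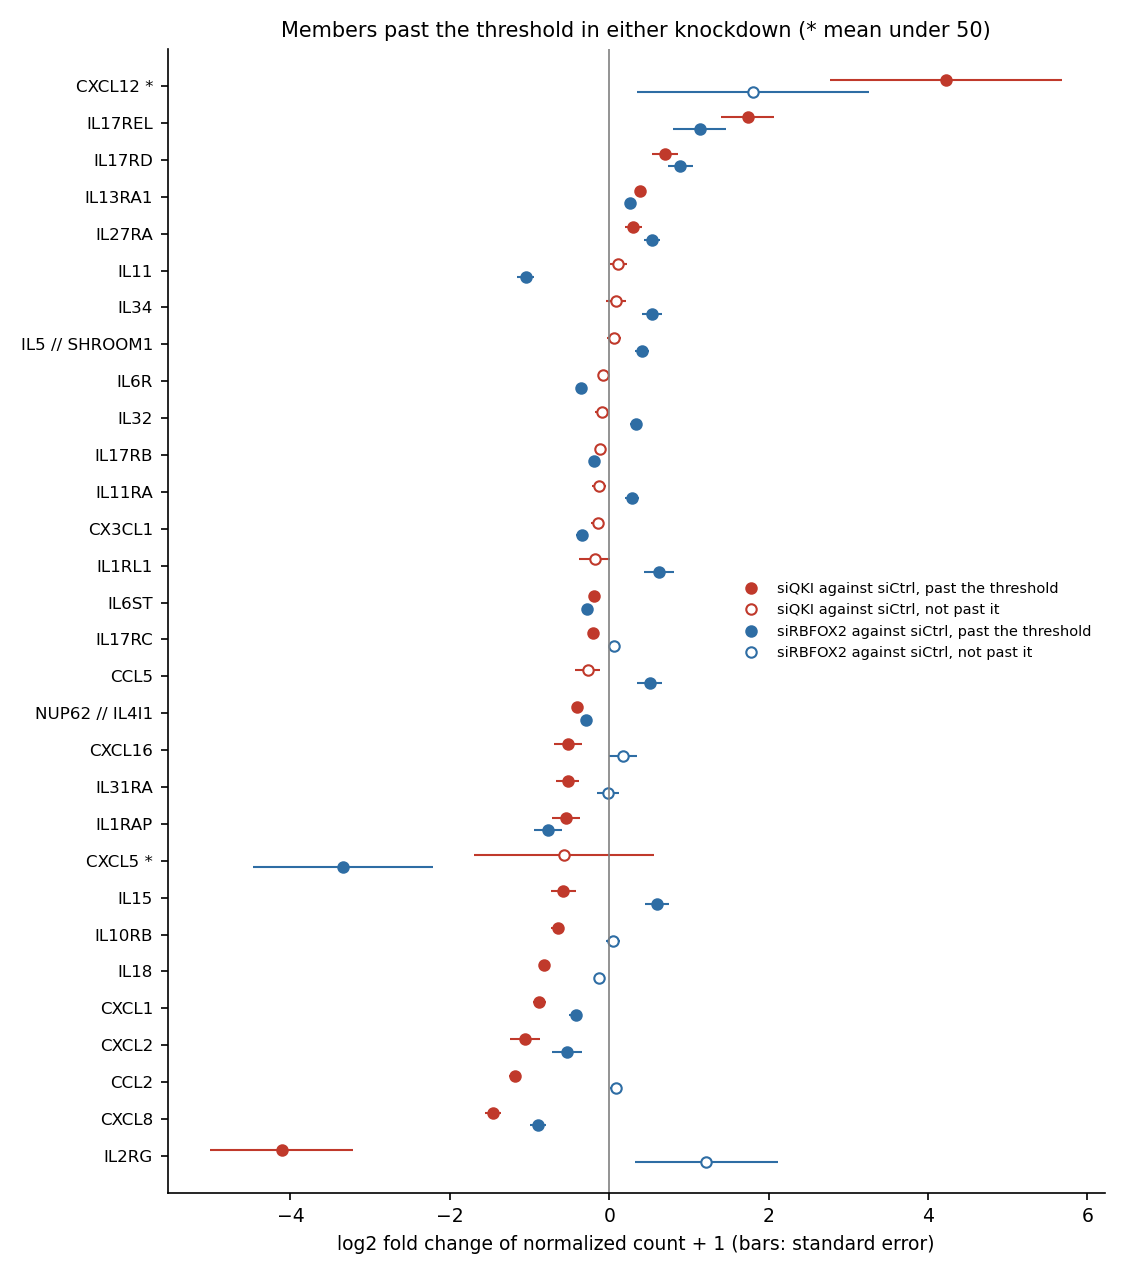
Log2 fold changes (x axis) of the 30 members past the threshold in either knockdown (y axis, in order of the siQKI value), against the same siCtrl libraries. Red is siQKI, blue siRBFOX2, filled points passed the threshold, open points did not, bars are standard errors, and asterisks mark means under 50 normalized counts. CXCL8, CXCL1 and CXCL2 are filled and below 0 for both, and IL15 is filled on opposite sides of 0.

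Of the 6 ELR chemokines CXCL8, CXCL1 and CXCL2 fell after siQKI. The median log2 fold change of the 6 genes was -0.97 after siQKI and -0.48 after siRBFOX2. CXCL8, the interleukin-8 gene (hg38 chr4:73740558-73743716), had 5496, 4973 and 5991 normalized counts in siCtrl, 2018, 1799 and 2178 in siQKI and 2550, 2986 and 3326 in siRBFOX2 libraries. The 3 groups did not overlap, with siQKI lowest. The log2 fold change was -1.46 ± 0.10 (SE, limma adjusted p = 5.4e-08) after siQKI and -0.90 ± 0.10 (adjusted p = 1.28e-05) after siRBFOX2, and the groups differed from each other by -0.56 ± 0.10 (adjusted p = 0.000936).

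CXCL1, a neutrophil attractant and with CCL2 the most abundant chemokine of PANC-1 cells per kb, had 19559, 16145 and 16485 normalized counts in siCtrl, 10582, 9535 and 8317 in siQKI and 13214, 13073 and 12620 in siRBFOX2 libraries. Again siQKI was lowest, siRBFOX2 lay between, and no groups overlapped. It fell by 0.88 ± 0.08 on the log2 scale after siQKI (limma adjusted p = 8.78e-07) and by 0.42 ± 0.08 after siRBFOX2 (adjusted p = 0.00127), with a difference of -0.46 ± 0.08 between them (adjusted p = 0.000721).

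CXCL2, its near copy, had 2428, 1438 and 1353 normalized counts in siCtrl, 752, 895 and 777 in siQKI and 1105, 1025 and 1381 in siRBFOX2 libraries. All siQKI libraries were below all siCtrl libraries, whereas the highest siRBFOX2 library lay above the lowest siCtrl library. The log2 fold change was -1.06 ± 0.19 (limma adjusted p = 0.00038) after siQKI and -0.53 ± 0.19 (adjusted p = 0.0459) after siRBFOX2. The second call held in 6 of 17 other settings. Without siCtrl replicate 1 the fall was 0.27 (adjusted p = 0.226), without siRBFOX2 replicate 1 or 2 the adjusted p was 0.118 or 0.151, and without siQKI replicate 1, 2 or 3 it was 0.0514, 0.0537 or 0.0551. The transcripts of CXCL1, CXCL2 and CXCL3 share 5.73%, 9.24% and 5.26% of their 50-base windows with one another, so part of their counts is uncertain.

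The other ELR genes gave scattered values. CXCL3, with 1037, 772 and 361 normalized counts in siCtrl, had 864, 729 and 454 in siQKI libraries (log2 difference -0.00, adjusted p = 0.993) and 1020, 1025 and 1181 in siRBFOX2 libraries (log2 difference 0.70, adjusted p = 0.108), both by limma. CXCL6 had 74.7, 63.0 and 87.5 in siCtrl and 17.1, 26.2 and 81.8 in siQKI libraries (log2 difference -1.13, adjusted p = 0.217). CXCL5 was low in PANC-1 cells, at 92.9, 31.0 and 40.2 in siCtrl and 0, 40.7 and 1.85 in siRBFOX2 libraries. Its call after siRBFOX2 (limma adjusted p = 0.0397) held in 3 of 17 other settings. It was lost without any 1 of siCtrl replicates 1, 2 and 3 (0.143, 0.06 and 0.0808), siQKI replicates 2 and 3 (0.0527 and 0.0526) or siRBFOX2 replicates 1 and 3 (0.148 and 0.103). All 3 carry the printed kappaB letters. Summed over the 6 genes, the rescaled counts, without length correction, were 67.3 to 84.7 in siCtrl, 36.1 to 42.8 in siQKI and 53.2 to 56.8 in siRBFOX2 libraries, of which CXCL1 made up 68.3%, 72.7% and 71.1%.

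**Figure D3:**
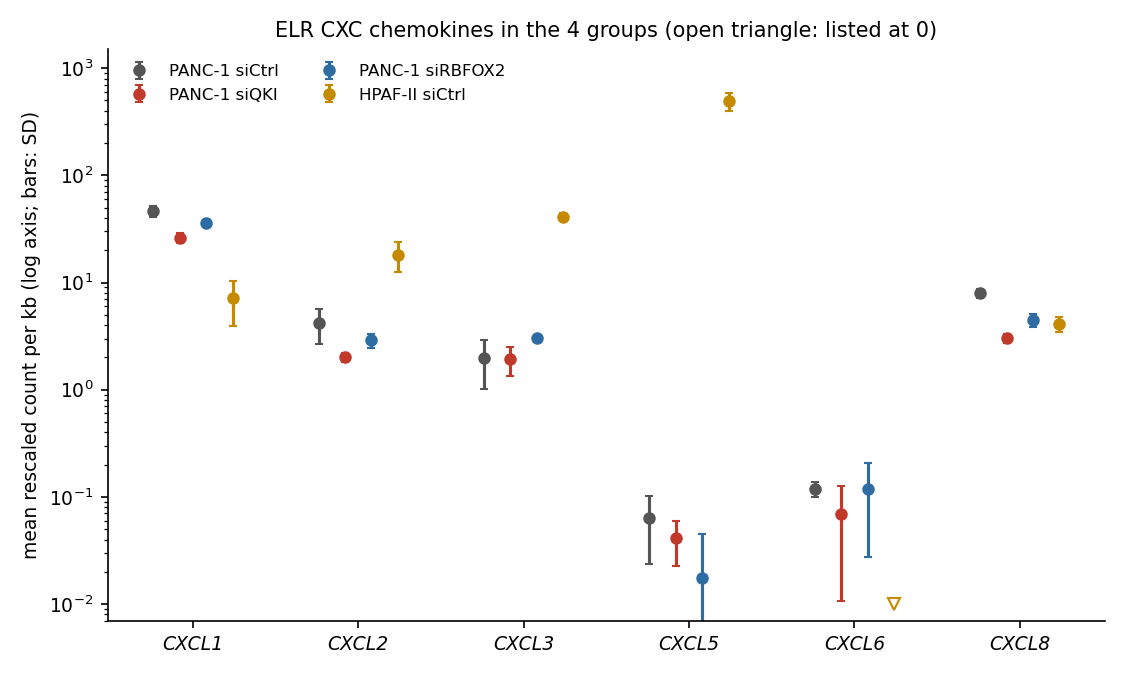
Mean rescaled counts per kb (y axis, log scale) of the 6 ELR chemokines in the 4 groups, with bars for the SD of 3 libraries; the open triangle marks CXCL6 in HPAF-II, listed at 0, and 1 bar of CXCL5 runs below the axis. CXCL1 leads in PANC-1 cells and CXCL5, at 490, in HPAF-II cells.

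Among CC chemokines CCL2 fell after siQKI and did not pass the test after siRBFOX2. CCL2, the monocyte attractant MCP-1 (hg38 chr17:34255281-34257203), had 18409, 15834 and 16908 normalized counts in siCtrl, 8589, 7159 and 6842 in siQKI and 18114, 18246 and 17580 in siRBFOX2 libraries. The siQKI libraries were all at or below 8589 and overlapped with neither other group. On the log2 scale CCL2 changed by -1.18 ± 0.07 (limma adjusted p = 1.76e-08) after siQKI and 0.08 ± 0.07 (adjusted p = 0.495) after siRBFOX2, and siQKI differed from siRBFOX2 by -1.26 ± 0.07 (adjusted p = 2.69e-08).

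CCL5, an attractant of T cells, had 2802, 2010 and 1902 normalized counts in siCtrl, 2295, 1452 and 1830 in siQKI and 2938, 3566 and 2936 in siRBFOX2 libraries. Every siRBFOX2 library was above every other library. It rose by 0.51 ± 0.16 on the log2 scale after siRBFOX2 (limma adjusted p = 0.0276), a call lost without siCtrl replicate 2 (adjusted p = 0.0988), siCtrl replicate 3 (0.123) or siRBFOX2 replicate 2 (0.113), whereas siQKI against siRBFOX2 gave -0.78 ± 0.16 (adjusted p = 0.0023, or 0.0526 without the mean-variance trend of the fit). Of the other CC chemokines tested, CCL20, CCL22, CCL26, CCL27 and CCL28 passed in neither knockdown. CCL27 differed between siQKI and siRBFOX2 (limma adjusted p = 0.0479), a call lost without any library but siCtrl replicate 1 and siRBFOX2 replicate 2 (adjusted p = 0.0511 to 0.173). It overlaps IL11RA, and its values of 0 to 89.95 per library are uncertain.

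CX3CL1 and CXCL16 are made as membrane-bound chemokines and shed. CX3CL1, or fractalkine, had 5805, 5894 and 5380 normalized counts in siCtrl, 5777, 5071 and 4626 in siQKI and 4355, 4757 and 4349 in siRBFOX2 libraries, a fall of 0.34 ± 0.08 on the log2 scale after siRBFOX2 (limma adjusted p = 0.00374) without overlap. It gave -0.15 after siQKI (adjusted p = 0.168), and siQKI and siRBFOX2 were not told apart by limma (0.20 ± 0.08, adjusted p = 0.0872). CXCL16 had 463, 469 and 442 in siCtrl, 351, 290.4 and 317 in siQKI and 623, 487 and 449 in siRBFOX2 libraries. Its fall after siQKI (log2 fold change -0.52 ± 0.17, limma adjusted p = 0.0317) was lost without any 1 of siCtrl replicates 1, 2 and 3 (adjusted p = 0.0729, 0.0809 and 0.0588) or siQKI replicates 2 and 3 (0.105 and 0.0718). It overlaps MED11 and ZMYND15, so its counts are uncertain. CXCL12, the ligand of CXCR4, was at 0 to 1.01 normalized counts in siCtrl and at 28.5, 51.5 and 15.7 in siQKI libraries, a call (limma adjusted p = 0.0361) lost without any 1 of the siCtrl or siQKI libraries (adjusted p = 0.0546 to 0.144).

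IL18 was the only ligand of the IL-1 family, of 6 tested, to change in either knockdown. IL18 (hg38 chr11:112143253-112164117), which needs cleavage by caspase-1 to become active, had 26861, 24011 and 24249 normalized counts in siCtrl, 14161, 13769 and 14657 in siQKI and 23215, 21788 and 23794 in siRBFOX2 libraries. The siQKI libraries stood below all others. IL18 changed on the log2 scale by -0.82 ± 0.05 (limma adjusted p = 1.85e-08) after siQKI and -0.13 ± 0.05 (adjusted p = 0.0879) after siRBFOX2, and the groups differed by -0.69 ± 0.05 (adjusted p = 2.51e-07).

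IL18BP, the secreted decoy that binds IL-18, was not called: it had 2951, 2859 and 2685 normalized counts in siCtrl and 3081, 3104 and 3444 in siQKI libraries (log2 difference 0.18 ± 0.07, limma adjusted p = 0.067). It overlaps NUMA1. IL1A and IL1B, the founding ligands, had at most 120 and 152 normalized counts in any PANC-1 library and passed in neither comparison.

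IL1RAP, the accessory chain shared by receptors for IL-1, IL-33 and IL-36, was lower in both knockdowns, with 1009, 932 and 959.8 normalized counts in siCtrl, 618, 713 and 657 in siQKI and 713, 406 and 633 in siRBFOX2 libraries. Both knockdowns lay below all siCtrl libraries and overlapped with each other. It fell by 0.77 ± 0.18 on the log2 scale after siRBFOX2 (limma adjusted p = 0.00474) and by 0.55 ± 0.18 after siQKI (adjusted p = 0.0278), where the call was lost without any 1 of siCtrl replicates 1, 2 and 3 (0.0784, 0.0526 and 0.065) or siQKI replicates 1 and 3 (0.085 and 0.067). IL1R1, the binding chain for IL-1, was called in neither (887, 727 and 843 in siCtrl, 839, 856 and 906 in siQKI, 819, 977 and 950.3 in siRBFOX2 libraries).

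IL1RL1, the receptor chain for IL-33 known as ST2, had 517, 595 and 608 normalized counts in siCtrl, 408, 652 and 478 in siQKI and 862, 719 and 1097 in siRBFOX2 libraries. The siRBFOX2 libraries were the highest. It rose by 0.62 ± 0.19 on the log2 scale (limma adjusted p = 0.0245), a call lost without siCtrl replicate 1 (0.0837), siRBFOX2 replicate 1 (0.0557) or siRBFOX2 replicate 3 (0.118), and siQKI against siRBFOX2 gave -0.80 ± 0.19 (adjusted p = 0.00627). IL33 itself was listed at 0 in all PANC-1 libraries.

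IL11 showed the converse of CCL2 and IL18: it fell after siRBFOX2 and did not pass after siQKI. IL11 (hg38 chr19:55364382-55370463), a ligand of the IL-6 family that signals through IL11RA and gp130, had 1525, 2035 and 1831 normalized counts in siCtrl, 1960, 1907 and 1933 in siQKI and 881, 834 and 869.7 in siRBFOX2 libraries. All 3 siRBFOX2 libraries lay below every other library. Its log2 fold change was -1.05 ± 0.11 (limma adjusted p = 4.11e-06) after siRBFOX2 and 0.12 ± 0.11 (adjusted p = 0.46) after siQKI, and the groups differed by 1.17 ± 0.11 (adjusted p = 1.84e-06). IL6 itself had at most 73.0 normalized counts in a PANC-1 library and was not called, nor were IL12A and IL23A.

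The receptors of that family moved by less. IL6ST had 38725, 39315 and 41418 normalized counts in siCtrl, 32396, 34673 and 37494 in siQKI and 33321, 33334 and 31809 in siRBFOX2 libraries, all of them below siCtrl. Its log2 fold change was -0.19 ± 0.05 after siQKI (limma adjusted p = 0.00732, or 0.0647 without the mean-variance trend of the fit) and -0.28 ± 0.05 after siRBFOX2 (adjusted p = 0.000742). IL6R, the binding chain for IL-6, fell by 0.35 ± 0.07 after siRBFOX2 (limma adjusted p = 0.00189), from 4444, 4450 and 4728 to 3659, 3528 and 3507 normalized counts, and it overlaps an antisense gene.
IL11RA, in contrast, rose by 0.29 ± 0.09 on the log2 scale after siRBFOX2 (limma adjusted p = 0.0247), from 2175, 2593 and 2091 to 2929, 2751 and 2654 normalized counts. This call was lost without siCtrl replicate 1 (0.0852) or 3 (0.112), or without siRBFOX2 replicate 1 (0.0964) or 2 (0.0515), and the gene overlaps GALT and CCL27. IL27RA, the receptor chain for IL-27, rose by 0.53 ± 0.10 after siRBFOX2 (limma adjusted p = 0.0013) and by 0.30 ± 0.10 after siQKI (adjusted p = 0.036), the latter lost without siCtrl replicate 1 (0.161) or 3 (0.0538) or siQKI replicate 1 (0.096) or 3 (0.0995). IL31RA, an epithelial receptor chain for IL-31, fell after siQKI by 0.52 ± 0.14 (limma adjusted p = 0.0088), from 1155, 1276 and 1574 to 835, 1023 and 913 normalized counts, and without siCtrl replicate 3 the adjusted p was 0.0546.

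IL15 was the one member to change in opposite directions in the knockdowns. IL15 (hg38 chr4:141636570-141733987), a growth factor for natural killer and memory T cells, had 649, 573 and 685 normalized counts in siCtrl, 509.7, 384.6 and 392.1 in siQKI and 849, 1026 and 1015 in siRBFOX2 libraries. The 3 groups did not overlap. The log2 fold change was -0.57 ± 0.15 (limma adjusted p = 0.00912) after siQKI and 0.60 ± 0.15 (adjusted p = 0.00918) after siRBFOX2, a difference of -1.17 ± 0.15 (adjusted p = 5.69e-05). IL15RA, which presents IL-15 to neighbouring cells, was called in neither.

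IL32 and IL34 rose after siRBFOX2. IL32 had 37068, 29805 and 35375 normalized counts in siCtrl, 33001, 31436 and 30923 in siQKI and 40253, 39885 and 48886 in siRBFOX2 libraries, a log2 fold change of 0.34 ± 0.08 after siRBFOX2 (limma adjusted p = 0.00553) with siRBFOX2 above all others, and without the mean-variance trend of the fit the adjusted p was 0.0798. IL34, a second ligand of the macrophage receptor CSF1R, rose from 688, 601 and 614 to 982, 920.1 and 850.3, or by 0.53 ± 0.12 (limma adjusted p = 0.00494), and had 660.2, 665 and 683 in siQKI libraries. A gene that the annotation joins from IL5 and SHROOM1, and that spans RAD50 and other genes, rose as well (0.41 ± 0.09, limma adjusted p = 0.00325), and no part of it can be assigned to IL5.

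IL13RA1 was higher in both knockdowns, with 31671, 30889 and 31417 normalized counts in siCtrl, 39298, 41225 and 42094 in siQKI and 37284, 40109 and 35740 in siRBFOX2 libraries. All 6 knockdown libraries were above all siCtrl libraries. The rise was 0.38 ± 0.05 on the log2 scale after siQKI (limma adjusted p = 1.03e-05) and 0.27 ± 0.05 after siRBFOX2 (adjusted p = 0.000455). Its partner IL4R had 6511 to 7298 normalized counts in the 9 libraries and was called in neither.

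IL2RG, the common gamma chain that lymphocyte receptors for IL-2 and IL-15 share, was low and scattered, with 208, 50.0 and 94.6 normalized counts in siCtrl, 0, 22.7 and 7.34 in siQKI and 316.5, 158 and 254 in siRBFOX2 libraries. The siQKI libraries were the lowest. It passed the test after siQKI (log2 fold change -4.11 ± 0.90, limma adjusted p = 0.00223), with a size that rests on values near 0, and against siRBFOX2 (-5.33 ± 0.90, adjusted p = 0.000494). IL21R differed between siQKI and siRBFOX2 at values of 0 to 150.1 (limma adjusted p = 0.0375), a call lost without siQKI replicate 1 or 3 or any 1 of the siRBFOX2 libraries (adjusted p = 0.056 to 0.126).

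IL10RB, the second chain of receptors for IL-10, IL-22 and interferon lambda, fell after siQKI. It had 3228, 3048 and 3222 normalized counts in siCtrl, 2273, 1954 and 1855 in siQKI and 3478, 3040 and 3302 in siRBFOX2 libraries. The siQKI libraries lay below all others, and the other 2 groups overlapped. On the log2 scale IL10RB changed by -0.65 ± 0.09 (limma adjusted p = 2.86e-05) after siQKI and 0.05 ± 0.09 (adjusted p = 0.752) after siRBFOX2, and the groups differed by -0.69 ± 0.09 (adjusted p = 2.98e-05). IL22RA1, its partner chain for IL-22, and IL20RB, a chain of the IL-20 receptors, passed in neither.

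IL-17 receptor genes divided by member. IL17RD, also known as SEF and an inhibitor of FGF signalling, had 358, 414 and 444 normalized counts in siCtrl, 656, 617 and 697 in siQKI and 815, 852 and 609 in siRBFOX2 libraries. Both knockdowns lay above siCtrl. It rose by 0.70 ± 0.16 on the log2 scale after siQKI (limma adjusted p = 0.00332) and by 0.89 ± 0.16 after siRBFOX2 (adjusted p = 0.000747). IL17REL, a receptor-like gene, had 171, 98.9 and 69.4 in siCtrl, 284, 446.5 and 351 in siQKI and 287, 264 and 167 in siRBFOX2 libraries. It rose by 1.74 ± 0.34 after siQKI (limma adjusted p = 0.000859) and by 1.13 ± 0.34 after siRBFOX2 (adjusted p = 0.0206), the second call being lost without siCtrl replicate 2 (0.0552) or 3 (0.0936) or siRBFOX2 replicate 1 (0.0829) or 2 (0.0685).
IL17RC, a signalling chain for IL-17A and IL-17F, fell by 0.21 ± 0.06 after siQKI (limma adjusted p = 0.00895), from 8612, 8953 and 8929 to 7528, 7265 and 8137 normalized counts, and without siQKI replicate 2 the adjusted p was 0.0515. IL17RB, the receptor chain for IL-25, fell by 0.19 ± 0.06 after siRBFOX2 (limma adjusted p = 0.0347), a call lost without any 1 of siCtrl replicates 1, 2 and 3 (0.0515, 0.109 and 0.0793) or siRBFOX2 replicates 1 and 2 (0.147 and 0.0798). IL17RA, the chain common to the family, had 5365 to 6181 normalized counts in the 9 libraries and was called in neither. IL17RB, IL17RC and IL17REL each overlap a gene without a symbol. The gene that the annotation joins from NUP62 and IL4I1, a nuclear pore protein and an enzyme, fell in both (-0.41 ± 0.05, limma adjusted p = 3.53e-05, and -0.29 ± 0.05, adjusted p = 0.00105), and the part of IL4I1 in it is unknown.

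Genes that act beside these families are given from a list for each pathway, beside 18.1% lower and 14.9% higher among all genes after siQKI, and 14.5% and 12% after siRBFOX2. Of 20 NF-kappaB pathway genes tested, 12 fell after siQKI and 1 rose (median log2 fold change -0.23), whereas 3 fell and 6 rose after siRBFOX2 (median -0.06). The largest falls after siQKI were those of IKBKG (-0.89), the regulatory subunit of the IkappaB kinase, NFKBIZ (-0.81), a nuclear co-regulator, RELB (-0.63) and TNIP1 (-0.57). NFKB1 rose in both (0.36 and 0.71). BIRC3, a target gene and ubiquitin ligase, fell after siQKI (-0.21) and rose after siRBFOX2 (0.70). The falls after siQKI include inhibitors of the pathway, namely NFKBIA (-0.48), NFKBIE (-0.44) and TNIP1, and pathway activity was not tested.
Of 12 adaptors of IL-1 and IL-17 receptors, 6 fell and 1 rose after siQKI, led by the kinase IRAK2 (-0.88), and 3 fell and 3 rose after siRBFOX2. Of 25 JAK-STAT genes, 10 fell and 1 rose after siQKI, and 9 fell and 5 rose after siRBFOX2. JAK3 fell by 0.80 after siQKI, and SOCS5, a suppressor of cytokine signalling, rose by 0.72 and 0.70. Of 19 tested cytokines and receptors outside the naming rule, 5 rose and 2 fell after siQKI, among them LIF (-0.79), and 5 rose and 3 fell after siRBFOX2.

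Most receptors for these chemokines were scarce in PANC-1 cells. Of 23 chemokine receptor genes 8 could be tested in PANC-1 cells. Of these CXCR4, the receptor of CXCL12, rose after siRBFOX2 from 69.1 ± 1.96 to 178 ± 48.8 normalized counts (SD, n = 3; log2 fold change 1.31 ± 0.39 SE, limma adjusted p = 0.0202). CXCR1 and CCR2 were listed at 0 in siCtrl libraries, and CXCR2 had a mean of 1.01 normalized counts. The highest siCtrl means were those of CCR10 (403), CCR6 (172) and CXCR5 (137), which were called in neither knockdown. CCR6 was higher in siQKI than in siRBFOX2 libraries (log2 difference 1.17 ± 0.31 SE, limma adjusted p = 0.0124). In HPAF-II libraries ACKR4 (1729) and CCRL2 (1559) had the highest mean normalized counts.

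Every library came from a cultured carcinoma cell line, not from tissue. Markers of other cell types are therefore read as expression by the line, not as a share of such cells. Within a line, fewer expressing cells and less RNA per cell cannot be told apart in bulk RNA. Of 16 leukocyte marker genes, summed rescaled counts were 147 to 171 in siCtrl, 118 to 120 in siQKI, 129 to 135 in siRBFOX2 and 1150 to 1240 in HPAF-II libraries, and 6, 7, 5 and 7 of the 16 were listed at 0. The sum was mostly CD68 in PANC-1 and LYZ in HPAF-II cells, genes that are also expressed outside leukocytes, and the defining marker PTPRC was listed at 0 in siCtrl and HPAF-II libraries. Of 5 fibroblast markers the sums were 11.7 to 13.4, 25.2 to 28.7, 15 to 22.7 and 19.3 to 22, with COL1A1 and PDGFRB higher in both knockdowns. DCN, LUM and FAP were at 0 in PANC-1 siCtrl libraries, but had means of 110, 297 and 95.8 normalized counts in HPAF-II libraries. LUM also had a mean of 19.8 in siRBFOX2 libraries. All 5 epithelial markers were detected in both lines, but EPCAM (mean rescaled counts 13.8 against 423) and KRT7 (4.16 against 866) were low in PANC-1 beside HPAF-II cells. KRT8, KRT18 and KRT19 fell after siRBFOX2 (log2 fold changes -0.23, -0.35 and -0.23), and KRT18 after siQKI (-0.20). Whether these differences in marker expression are linked to the changes of the members was not tested.

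Most of the cytokine and receptor genes compared differed between HPAF-II and PANC-1 cells. The lines were normalized separately, so counts were rescaled to a total of 1000000 per library and described without a test. With 3 libraries against 3, an exact two-sided permutation test of 1 gene cannot go below 0.1. Of 78 members with a mean of at least 10 in either line, 61 differed by at least 2-fold (78.2%, against 52.4% of all genes compared), 37 higher in HPAF-II (47.4%, against 27.2%) and 24 lower (30.8%, against 25.2%). By at least 4-fold 46 differed (59%, against 30.6%), 28 higher (35.9%, against 15%) and 18 lower (23.1%, against 15.6%). Of the 61, 8 were listed at 0 in PANC-1 siCtrl and 9 in HPAF-II libraries, for which no fold is given. The libraries of the lines did not overlap for 53 of 78 members (67.9%, against 63.7%). The median log2 ratio of HPAF-II to PANC-1 was 0.78 for the members and 0.08 for all genes.

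CXCL5, a neutrophil attractant, showed the widest gap among members above 0 in both lines. It had 1258, 1469 and 1001 rescaled counts in HPAF-II and 0.274, 0.0890 and 0.117 in PANC-1 siCtrl libraries, a log2 ratio of 12.84. Per kb it stood at 490 in HPAF-II cells, above IL18 (103), and it made up 93.8% of the ELR sum there, which was 1098 to 1539. CXCL3 (42.8, 41.7 and 47.9 against 3.06, 2.22 and 1.05) and CXCL2 (21.4, 15.6 and 29.2 against 7.17, 4.13 and 3.92) were higher in HPAF-II cells too, with log2 ratios of 4.38 and 2.12.
CXCL1 went the other way, with 5.73, 5.86 and 11.8 rescaled counts in HPAF-II and 57.7, 46.4 and 47.7 in PANC-1 libraries (log2 ratio -2.70). CXCL8 had 9.70, 7.16 and 7.73 against 16.2, 14.3 and 17.4 (log2 ratio -0.96), and CXCL6 was listed at 0 in HPAF-II cells. The ELR genes of HPAF-II cells were thus led by CXCL5 and those of PANC-1 cells by CXCL1.

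CCL2 was listed at 0 in all 3 HPAF-II libraries, where PANC-1 siCtrl libraries had 54.3, 45.5 and 49.0 rescaled counts. CCL28, a mucosal chemokine of epithelia, led the CC chemokines of HPAF-II cells, with 82.0, 89.6 and 46.2 against 4.01, 3.60 and 3.16 rescaled counts (log2 ratio 4.34). CCL20, the ligand of CCR6, followed with 17.5, 21.4 and 16.3 against 0.138, 0.144 and 0.568 (log2 ratio 5.97). CXCL16 (54.4, 50.5 and 40.9 against 1.37, 1.35 and 1.28, log2 ratio 5.18) was higher in HPAF-II cells and CX3CL1 (0.0618, 0.255 and 1.26 against 17.1, 16.9 and 15.6, log2 ratio -4.95) lower. None of these ranges overlapped.

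**Figure D4:**
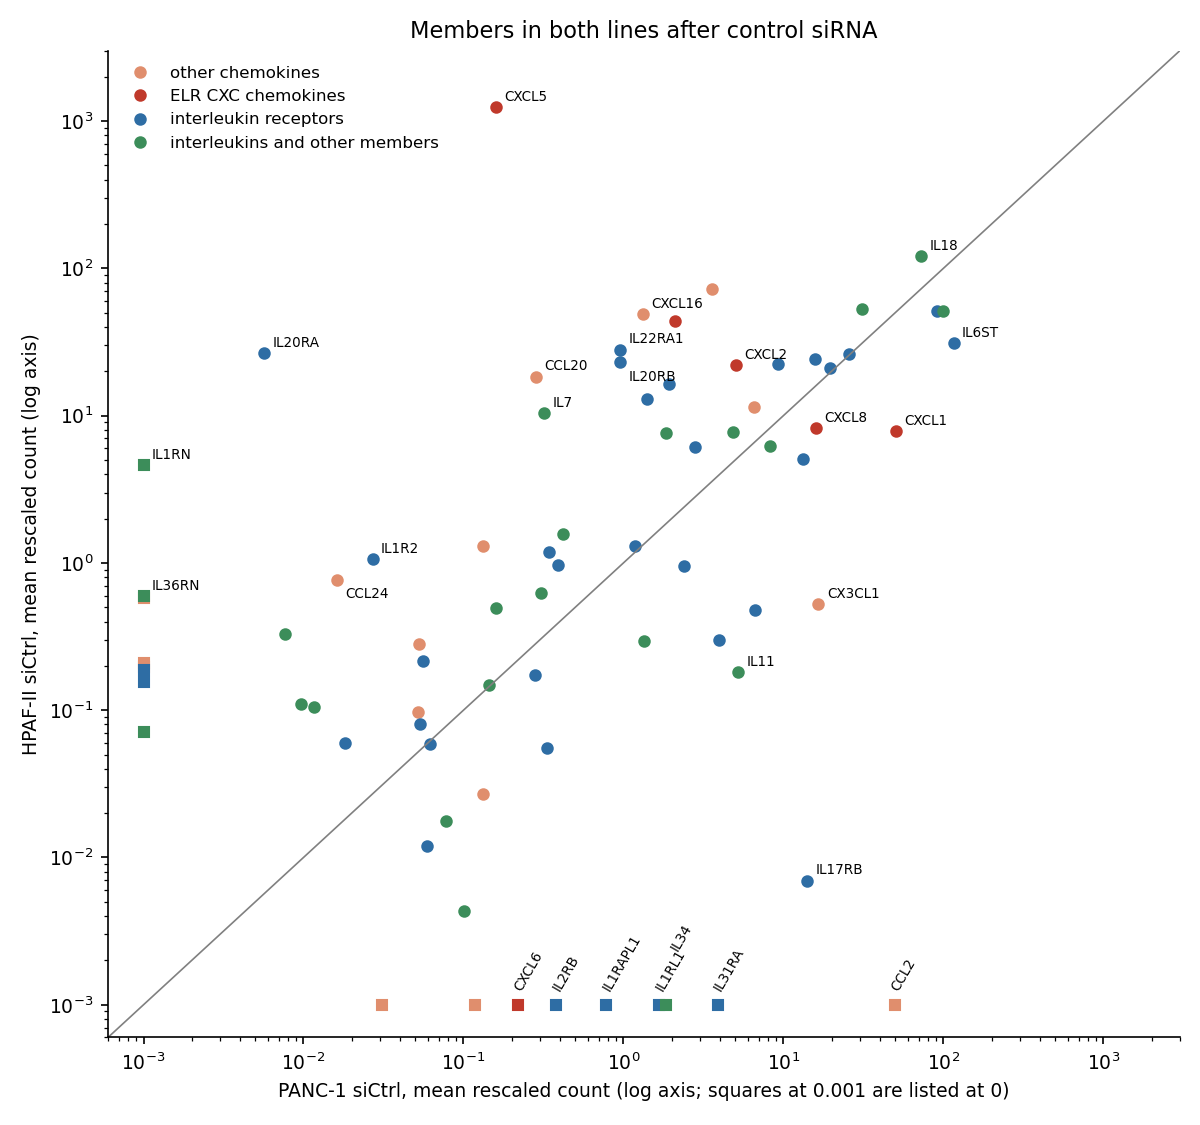
Mean rescaled counts of members in PANC-1 siCtrl (x axis) and HPAF-II siCtrl libraries (y axis), both on log scales and over 3 libraries, with 4 classes of members in colour; squares at the margin are listed at 0 in 1 line, and the diagonal marks equal values. CXCL5, IL20RA, CCL20 and CXCL16 lie far above the diagonal, and CCL2, IL17RB, CX3CL1 and IL11 far below it.

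All 5 compared receptors for IL-10, IL-20 and IL-22 were at least 2-fold higher in HPAF-II cells, with a median log2 ratio of 4.58. IL20RA had 27.6, 28.8 and 22.9 rescaled counts in HPAF-II libraries and 0.0170, 0 and 0 in PANC-1 libraries. IL20RB (23.9, 27.9 and 17.03 against 0.766, 1.01 and 1.08) and IL22RA1 (26.4, 29.8 and 27.9 against 1.04, 0.965 and 0.851), which pair with each other in a receptor for IL-20, had log2 ratios of 4.58 and 4.87. IL10RB was 21.7, 20.9 and 24.4 against 9.53, 8.76 and 9.33 (log2 ratio 1.28), and IL10RA overlapped between the lines at low values.

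The receptors of the IL-6 and IL-12 families under the naming rule showed the opposite order. Of 6 receptors compared 5 were at least 2-fold lower in HPAF-II cells. IL6ST had 30.3, 38.7 and 24.5 rescaled counts in HPAF-II against 114, 113 and 120.0 in PANC-1 libraries (log2 ratio -1.89), and IL11RA had 0.318, 0.443 and 0.685 against 6.42, 7.45 and 6.05 (log2 ratio -3.76). IL27RA had 0.313, 0.179 and 0.407 against 3.54, 4.3 and 4.11 (log2 ratio -3.69), and IL31RA was listed at 0 in HPAF-II cells, where PANC-1 libraries had 3.41, 3.67 and 4.56. IL11 itself had 0.141, 0.144 and 0.258 against 4.501, 5.84 and 5.30 (log2 ratio -4.77). IL11 and IL11RA were thus both lower in HPAF-II cells, with no overlap of libraries. Of 4 ligands of the IL-6 and IL-12 families compared, 3 were at least 2-fold lower, and IL23A was higher (log2 ratio 1.89). Outside the naming rule OSMR was higher in HPAF-II cells (mean rescaled counts 46.2 against 22.3) and LIFR lower (2.53 against 24.1).

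Of 9 ligands and antagonists of the IL-1 family compared, 6 were at least 2-fold higher in HPAF-II cells and 3 were within 2-fold. IL18 had 133, 137 and 91.9 rescaled counts against 79.3, 69.0 and 70.2 (log2 ratio 0.73), and IL1RN, the natural antagonist of the IL-1 receptor, had 5.14, 3.39 and 5.25 where PANC-1 siCtrl libraries were listed at 0. IL1R2, the decoy receptor, was higher as well (0.556, 1.37 and 1.24 against 0.0113, 0 and 0.0699). IL1RL1 and IL34 were listed at 0 in HPAF-II libraries. In PANC-1 libraries IL1RL1 had 1.53, 1.71 and 1.76 rescaled counts, and IL34 had 2.03, 1.73 and 1.78.

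Of the remaining members, IL7, a lymphocyte growth factor, had 12.1, 11.8 and 7.43 rescaled counts in HPAF-II and 0.0650, 0.270 and 0.621 in PANC-1 libraries (log2 ratio 4.99). IL15 (6.10, 5.79 and 10.98 against 1.92, 1.65 and 1.98) and IL15RA (16.6, 19.1 and 13.3 against 2.05, 2.14 and 1.60) were both higher, with log2 ratios of 2.04 and 3.07. IL17RB was at 0, 0.00798 and 0.0129 in HPAF-II and at 14.0, 14.3 and 14.1 in PANC-1 libraries, while IL17RE, the receptor chain for IL-17C, was higher in HPAF-II cells (12, 10.03 and 17.1 against 0.873, 1.55 and 1.82). IL17RA, IL17RC and IL4R, which are widely expressed, were within 2-fold. At lower levels, CCL15, CCL22, CCL24, CXCL11 and IL36RN were higher in HPAF-II cells and IL12A, IL17REL, IL1RAPL1 and IL2RB lower, each by at least 4-fold or with a listing of 0 in the other line. In all, 20 members were at least 4-fold higher in HPAF-II cells with libraries apart (25.6%, against 12.3% of all genes), and 16 were lower (20.5%, against 14.2%).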

How the data were processed

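The authors deposited a signal value per gene and library, namely its count scaled by the library's DESeq2 size factor, in a table of 9 PANC-1 libraries and a separate one of 3 HPAF-II libraries. Their processing notes name FastQC, STAR 2.7.5a, Picard, SAMtools and hg38, and genes follow the FAST DB annotation. Strand and read-pair handling are not given in the sources used here. Every value was a whole multiple of a step (within 0.01 of a whole number), but 82.1% to 84.8% of values of 1 to 30 steps per library were multiples of 3. A step is therefore not a fragment, depth in fragments is unknown, no count test was run, and precision comes from the replicates. Steps summed to 292248837 to 376192091 per PANC-1 library and 226697015 to 309720537 per HPAF-II library.

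PANC-1 groups were fitted together with limma 3.58.1 in R 4.3.3 (mean-variance trend, no block) on log2(normalized count + 1). A mean of 10 or more was required for testing, with Benjamini-Hochberg adjustment over all of them, and the procedure was tested on simulated data. Between lines, means of rescaled counts were compared as log2 ratios with a pseudocount of 0.01. The added constants pull ratios of genes near 0 towards no change. In the knockdown fits, single libraries at or near 0 can also enlarge a log2 fold change beyond the ratio of the group means. Sizes for low genes are thus uncertain. That of CXCL5 after siRBFOX2 ranged from -4.88 to -1.71 under the other settings. Exon lengths came from GENCODE 29, and promoters and transcripts from RefSeq (GRCh38.p14). Shared sequence was read in windows of 50 bases. Tables and figures were made in Python 3.11.15 with numpy 2.4.6, pandas 2.3.3 and matplotlib 3.10.9.

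Values in full were given for members with a mean of at least 50 that passed the test with a fold of at least 1.5, for the 2 highest members of each role in either line, and for members with a mean of at least 50 that differed at least 4-fold between lines without overlap. Other members are given by counts, ranges or a clause. The members, the gene lists and the motif letters were chosen with earlier results of these data known. Other settings tried were a pseudocount of 0.1 or 10, no filter or a minimum mean of 50, scaling to the 75th percentile (upper quartile), a fit restricted to the groups in question, a block for the replicate number, no trend, omission of each library, an adjusted p under 0.01 and a fold of at least 1.5.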

Additional observations from a re-analysis of the deposited data

How the results depend on the processing

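With a fold change of at least 1.5 the number of members called was 10 after siQKI, 8 after siRBFOX2 and 11 for siQKI against siRBFOX2, in place of 19, 22 and 20, since fewer changes are that large. Without the mean-variance trend 14 were called after siRBFOX2, and the cause was not tested. The calls lost there were CCL5, CXCL2, CXCL5, IL11RA, IL17RB, IL17REL, IL1RL1 and IL32. After siQKI those of IL1RAP, IL27RA and IL6ST were lost without the trend, and for siQKI against siRBFOX2 those of CCL5, CCL27, IL21R, IL31RA and IL6R. Losses given beside single members are those on leaving out a library, unless another setting is named. Leaving out each library in turn gave 14 to 20, 17 to 21 and 16 to 22 calls in these contrasts, 60 to 63 members at least 2-fold apart between the lines, and 61 to 64 (siCtrl), 62 to 66 (siQKI), 62 to 67 (siRBFOX2) and 60 to 63 (HPAF-II) members detected. Same-numbered PANC-1 libraries did not deviate together (r -0.0325 to 0.0235) more than other pairs of libraries (r -0.0333 to 0.0384). No pairing by number was seen, although a correlation over all genes tested can miss a weak one. A fit with the replicate number as a block called 19, 20 and 19 members. Under the 17 alternatives that refit the data, 12 of 19, 14 of 22 and 13 of 20 calls passed every time. No called member and no named line ratio changed direction under these alternatives, and members that were not called, such as CXCL3 after siQKI, were not followed through them. A pseudocount of 0.1 left 51 members at least 2-fold apart between the lines, and the deposited values without rescaling 62. Apart from the fold of at least 1.5, shares of all genes are not given under these settings. The counts therefore describe the members only, not whether they moved more than other genes. Members near 0, such as CXCL12, CXCL5, IL21R and CCL27, have the least certain fold changes, and reads shared by CXCL1, CXCL2 and CXCL3 or by overlapping genes cannot be separated in these tables. Protein secretion was not measured here.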
